A study of Mus musculus with 8 samples.

Results

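The proteasome genes measured here are those whose symbol is Psma, Psmb, Psmc, Psmd, Psme, Psmf or Psmg followed by a number, without the immune subunits Psmb8 and Psmb9. There were 42 such genes, of 8251 genes that the array names by a single symbol, represented by 54 probe sets, and no Psmf gene was among them. For each gene the probe set was selected on its mean signal over all arrays, the highest being taken, and the difference between hemispheres played no part in the choice. They comprised 15 core genes (7 Psma and 8 Psmb), 23 regulatory genes (6 Psmc, 14 Psmd and 3 Psme) and 4 assembly chaperone genes (Psmg). The tissue was visual cortex of wild-type C57Bl6 mice of postnatal day 24, all of which had lost one eye at postnatal day 20, 4 days before. Deprived cortex lay contralateral and non-deprived cortex ipsilateral to the removed eye, with 4 single-colour oligonucleotide arrays of each, numbered 1 to 4. The labels speak of 4 operated mice, the design text of pooled samples, so an array may hold one animal or a pool and the p-values measure only how far these samples spread, possibly for technical reasons. No unoperated mice were included, both hemispheres came from enucleated animals, and in whole tissue fewer cells of a type and less RNA per cell cannot be told apart.

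The proteasome is the protease that degrades proteins tagged with ubiquitin. Its core is a barrel of alpha rings, which gate the entrance, and beta rings, of which the subunits encoded by Psmb5, Psmb6 and Psmb7 carry the protease sites. A regulatory particle with a ring of ATPases (Psmc) and further subunits (most Psmd) binds, deubiquitinates, unfolds and feeds substrates into the core, and the Psme proteins are alternative caps. In neurons the proteasome is known to take part in the turnover of synaptic proteins.

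Values are MAS5 signal, a linear intensity per probe set, and differences are deprived minus non-deprived on the scale log2(signal + 15.3). That scale understates the change of dim genes. Of the 42 genes, 39 had a mean above the 40th percentile of all probe sets and were tested: all 15 core, 20 regulatory and all 4 chaperone genes. The nearest gene inside that limit was Psmg2, with a mean log2 value of 7.62, and the nearest outside was Psmd10, with 6.60. In limma 0 of the 39 passed an adjusted p of 0.05, as did 0 (0.0%) of all 7453 probe sets tested, and the lowest adjusted p among the members was 0.995. At an unadjusted p under 0.05 there was 1 member, Psmd1, against 2.67% of all probe sets (1.22% lower, as Psmd1 was). The values of both hemispheres overlapped for every tested member, so 0 of 39 lay wholly below, against 0.805% of all probe sets, and 0 of 39 wholly above, against 1.23%. In the fit that takes the replicate number as a block, 0 members passed as well (0.0% of all probe sets, lowest member adjusted p in limma 0.703). That fit had 10 of 39 members at an unadjusted p under 0.05, against 7.03% of all probe sets. Of these 8 were lower (3.65% of all) and 2 higher (3.38% of all).

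Most members lay slightly below 0. The difference was negative for 31 of 39, with a median of -0.14, whereas 45.1% of all probe sets were negative and their median was 0.02. After quantile and cyclic loess scaling 28 of 39 members were negative, against 49.3% and 49.6% of all probe sets. With the filter at the 60th percentile 29 of 37 members were negative, against 49.1% of all probe sets. All 15 core genes were negative (14 after quantile or cyclic loess scaling, where Psma3 turned), from -0.30 to -0.03 with a median of -0.18. The number was also 14 with the mean over all probe sets of a gene, without deprived replicate 2 or 3 and without both arrays numbered 2, and it was 13 without both arrays numbered 3. Of the 20 regulatory genes 14 were negative (12 after either scaling, where Psmc3 and Psmd7 turned), from -0.39 to 0.48 with a median of -0.14. The difference between these medians was -0.05 and was not tested.

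**Figure D1:**
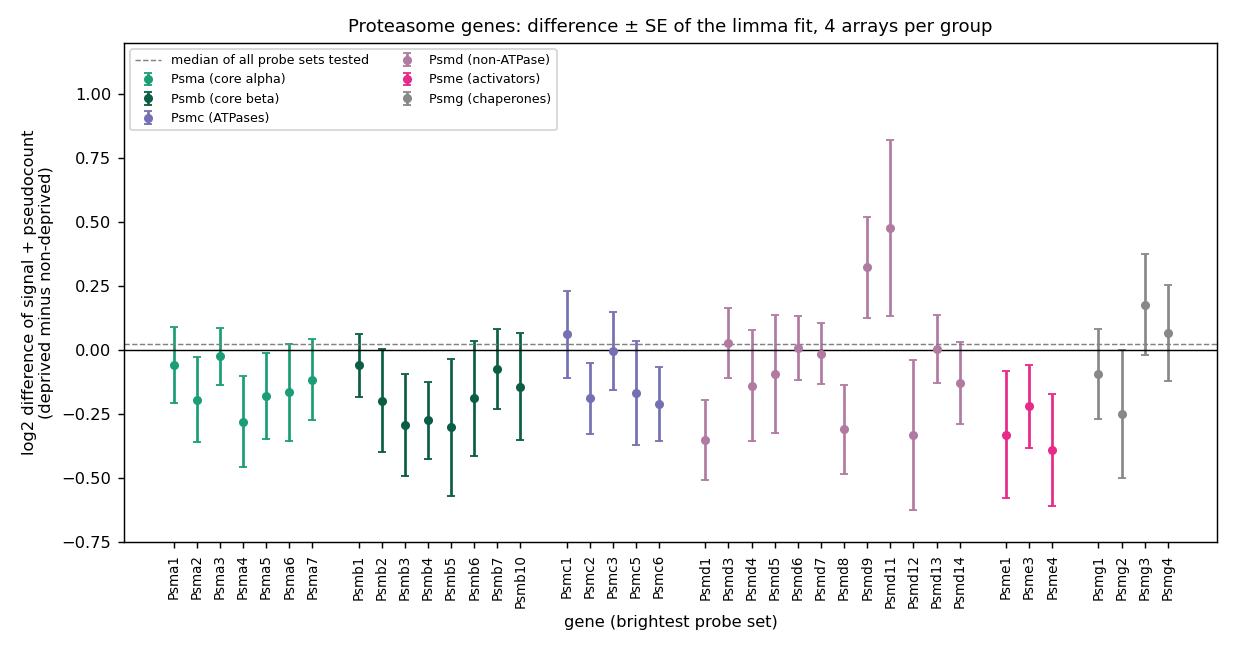
Log2 difference of signal plus pseudocount (deprived minus non-deprived, y axis) for each of the 39 tested proteasome genes (x axis), coloured by family, with bars for the standard error of the limma fit and a dashed line at the median of all probe sets, 0.02. All 15 Psma and Psmb genes lie below 0 (14 after quantile or cyclic loess scaling), while Psmd genes range from -0.35 for Psmd1 to 0.48 for Psmd11.

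The alpha subunits, which form the outer rings of the core, had 7 of 7 negative (6 after those scalings), a median of -0.17 and a range of -0.28 to -0.03. Psma4 had signals of 1366, 1335, 1608 and 1668 in non-deprived and 1314, 1027, 983 and 1675 in deprived replicates 1 to 4. Its groups overlapped, because deprived replicate 4 was the highest of all 8 arrays and replicates 2 and 3 the lowest. The difference was -0.28 ± 0.18 (SE, n = 4 per group; limma adjusted p = 0.995). Psma3 was nearly level, at 3834 ± 67.8 without and 3772 ± 237 with deprivation (SD, n = 4). Psma1, Psma2, Psma5, Psma6 and Psma7 lay at -0.06, -0.19, -0.18, -0.17 and -0.12, and none of the 7 was lower in 4 of 4 same-numbered pairs.

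The beta subunits, which form the inner rings, had 8 of 8 negative, a median of -0.19 and a range of -0.30 to -0.06. Psmb5 encodes the subunit with the chymotrypsin-like site, the main target of proteasome inhibitor drugs. Its signals were 2538, 1392, 1503 and 2013 in non-deprived and 2236, 1012, 1082 and 1863 in deprived replicates 1 to 4. Replicates 1 and 4 were high and 2 and 3 low in both hemispheres, so the groups overlapped although the deprived array was lower in 4 of 4 pairs. The difference was -0.30 ± 0.27 (SE; limma adjusted p = 0.995), and with the replicate number as a block the unadjusted p was 0.0191. A second, dimmer probe set of Psmb5, described below, was higher in 4 of 4 pairs. Psmb6, with the caspase-like site, had 910, 619, 983 and 1303 in non-deprived and 966, 669, 661 and 992 in deprived arrays. It was lower in 2 of 4 pairs, those numbered 3 and 4, with a difference of -0.19 ± 0.23 (SE). Psmb7, with the trypsin-like site, had 1463, 1523, 1871 and 1826 in non-deprived and 1677, 1439, 1312 and 1946 in deprived arrays. Its highest array was deprived replicate 4 and its lowest deprived replicate 3, and the difference was -0.08 ± 0.16 (SE), or 0.01 without deprived replicate 3.

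Psmb3 and Psmb4 encode beta subunits without a protease site and were lower in 4 of 4 pairs. Psmb3 had 1724, 1423, 1982 and 2314 in non-deprived and 1653, 1040, 1541 and 1861 in deprived replicates 1 to 4. The arrays numbered 2 were the lowest of both groups, and the difference was -0.29 ± 0.20 (SE), with an unadjusted p of 0.0198 in limma with the block. Psmb4 had 2722, 2545, 3698 and 3067 in non-deprived and 2271, 2401, 2289 and 2913 in deprived arrays. Only deprived replicate 4 reached into the non-deprived range, and the difference was -0.28 ± 0.15 (SE), with an unadjusted p of 0.0886 in limma and 0.0467 with the block. It was -0.11 with the mean over the gene's probe sets, the other ones being below the filter, and -0.17 without non-deprived replicate 3. Psmb10, an interferon-inducible subunit that takes the place of Psmb7 in immunoproteasomes, had 956, 910, 1420 and 1529 in non-deprived and 971, 820, 1180 and 1339 in deprived arrays. Replicates 3 and 4 were higher than 1 and 2 in both hemispheres, and that gap was larger than the difference of -0.14 ± 0.21 (SE). Psmb1 and Psmb2 lay at -0.06 and -0.20. Of the 15 core genes, 3 were lower in 4 of 4 pairs by their brightest probe sets, against 6.92% of all probe sets, all of them beta genes.

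The ATPase ring was represented by 5 tested Psmc genes, 4 of them negative, with a median of -0.17. Psmc2 had 1928, 1574, 1869 and 1851 in non-deprived and 1809, 1318, 1519 and 1700 in deprived replicates 1 to 4. It was lower in 4 of 4 pairs with overlapping groups, and the difference was -0.19 ± 0.14 (SE). Psmc6 had 2628, 3043, 3478 and 2841 in non-deprived and 2522, 3044, 2126 and 2672 in deprived arrays. Most of its difference of -0.21 ± 0.15 (SE) came from replicate 3, the highest non-deprived and the lowest deprived array, and it was -0.05 with both arrays of that number left out. Psmc1, Psmc3 and Psmc5 lay at 0.06, 0.00 and -0.17.

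Among the Psmd genes 7 of 12 were negative, with a median of -0.06. Psmd1 encodes a large scaffold subunit at the base of the regulatory particle. Its signals were 1626, 1852, 1824 and 1709 in non-deprived and 1644, 1206, 1088 and 1619 in deprived replicates 1 to 4. The non-deprived arrays were close together, whereas deprived replicates 2 and 3 lay far below them and replicates 1 and 4 at their lower edge. The difference was -0.35 ± 0.16 (SE), with the smallest unadjusted p of the members, 0.0446 in limma, and an adjusted p of 0.995. Psmd4, a receptor for ubiquitin chains, had 1642, 1128, 1383 and 1542 in non-deprived and 1905, 928, 1043 and 1441 in deprived arrays. Its difference of -0.14 ± 0.22 (SE) became 0.01 without deprived replicate 2, and deprived replicate 1 was the highest of all arrays. Psmd5, an assembly chaperone of the ATPase ring, lay at -0.10.

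Psmd9, a further assembly chaperone of that ring, went the other way. It had 644, 335, 455 and 449 in non-deprived and 669, 472, 607 and 577 in deprived replicates 1 to 4. The deprived array was higher in 4 of 4 pairs, as for 8.95% of all probe sets, but non-deprived replicate 1 stood among the highest values. The difference was 0.32 ± 0.20 (SE), with an unadjusted p of 0.131 in limma and 0.0331 with the block.

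The lid of the regulatory particle had a median close to 0, with genes well to either side. Of its 8 tested genes (Psmd3, Psmd6, Psmd7, Psmd8, Psmd11, Psmd12, Psmd13 and Psmd14) 4 were negative, with a median of -0.01 and a range of -0.33 to 0.48. Psmd6 and Psmd7 were almost equal, at 1555 ± 175 and 1555 ± 36.4 for Psmd6 and at 1543 ± 91.9 and 1525 ± 82.2 for Psmd7 in non-deprived and deprived cortex (SD, n = 4). Psmd3 and Psmd13 lay at 0.03 and 0.00. Psmd14, the deubiquitinase that removes ubiquitin chains from substrates, had 1309, 1115, 1027 and 1023 in non-deprived and 1188, 982, 796 and 1145 in deprived arrays. It was lower in 3 of 4 pairs, by less than the spread within either group, at -0.13 ± 0.16 (SE).

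Psmd8 and Psmd12 were lower in 4 of 4 pairs. Psmd8, a lid subunit, had 889, 811, 767 and 1023 in non-deprived and 754, 573, 595 and 913 in deprived replicates 1 to 4. The arrays numbered 4 were the highest of both groups, and the difference was -0.31 ± 0.17 (SE), with an unadjusted p of 0.100 in limma and 0.0225 with the block. Psmd12 lay at -0.33 ± 0.29 (SE), with an unadjusted p of 0.0449 with the block. Psmd11, whose protein is a scaffold of the lid, was the member furthest above 0. Its brightest probe set had 2914, 4997, 1951 and 2394 in non-deprived and 3089, 6797, 5306 and 2302 in deprived arrays. Replicate 2 was high in both hemispheres and deprived replicate 3 was high as well, and the difference was 0.48 ± 0.34 (SE). Its other probe sets, described below, had differences below 0.

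The 3 measured Psme genes, which encode alternative caps of the core, had the lowest family median of the proteasome, -0.33, and all 3 were lower in 4 of 4 pairs. Psme4, which encodes the single-chain activator PA200, had 379, 575, 391 and 303 in non-deprived and 292, 403, 238 and 296 in deprived replicates 1 to 4. The arrays numbered 2 were the highest of both groups, and the difference was -0.39 ± 0.22 (SE), with an unadjusted p of 0.0984 in limma and 0.0306 with the block. Psme1, a subunit of the interferon-inducible cap, had 509, 263, 444 and 494 in non-deprived and 393, 219, 313 and 416 in deprived arrays. Both arrays numbered 2 were far below the rest of their groups, and the difference was -0.33 ± 0.25 (SE), with an unadjusted p of 0.0351 with the block. Psme3, the nuclear cap PA28 gamma, went from 1122 ± 172 to 960.0 ± 147 (SD, n = 4), a difference of -0.22 ± 0.16 (SE). Of the 20 regulatory genes 6 were lower in 4 of 4 pairs, where 6.92% of all probe sets were.

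The Psmg genes, whose proteins help to assemble the core, were split, with 2 of 4 negative and a median of -0.02. Psmg1 and Psmg2 lay at -0.09 and -0.25, and Psmg3 and Psmg4 at 0.18 and 0.06. The 3 members under the filter were Psmc4, Psmd2 and Psmd10. Psmc4 had signals of 61.0, 54.9, 11.8 and 53.5 in non-deprived and 37.9, 65.0, 35.8 and 94.1 in deprived replicates 1 to 4. Psmd2 ranged over the arrays between 17.4 and 116 and Psmd10 between 29.3 and 148. These signals were too low to compare, and each probe set that names Psme2 also names Psme2b, so Psme2 was not analysed here.

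For the core genes, arrays of one hemisphere spread more than the hemispheres differed. The mean log2 value of the 15 core genes was 10.64, 10.45, 10.83 and 10.86 in non-deprived and 10.63, 10.28, 10.41 and 10.78 in deprived replicates 1 to 4. The group means were 10.70 ± 0.191 and 10.52 ± 0.224 (SD, n = 4), so the difference of -0.17 was smaller than either SD. The mean of the 20 regulatory genes was 10.26, 10.17, 10.06 and 10.15 in non-deprived and 10.25, 9.98, 9.93 and 10.07 in deprived arrays, or 10.16 ± 0.0827 and 10.06 ± 0.142 (SD, n = 4). The size of their difference, -0.10, lay between these SDs. Each SD includes variation that same-numbered arrays shared. Deprived replicates 2 and 3 were low for both parts. They held the lowest of the 8 values for 12 of 15 core and 12 of 20 regulatory genes, and for 13.3% and 12.7% of all probe sets. These arrays were singled out for low means of the same genes, so the member counts are no separate result. Levels of different probe sets cannot be compared, so only the change between arrays of these means has a meaning.

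By pair, the lower core values came from numbers 2 and 3. In pair 1 the core mean differed by -0.01, with 6 of 15 genes lower in the deprived array. In pair 2 it differed by -0.17, with 14 of 15 lower. In pair 3 it differed by -0.42, with 14 of 15 lower, and in pair 4 by -0.08, with 10 of 15 lower. For the regulatory genes the differences were -0.005, -0.19, -0.13 and -0.08, with 11, 16, 13 and 13 of 20 lower. Of all probe sets, 50.2%, 46.0%, 44.0% and 49.8% were lower in these pairs. Single arrays thus set the size of the medians. Leaving out deprived replicate 2 moved the core median to -0.08, and leaving out deprived replicate 4 moved it to -0.29. Dropping non-deprived replicate 3 gave -0.10, and dropping number 4 of the same group gave -0.09. The regulatory median became -0.03 when deprived replicate 2 was dropped, -0.04 when number 3 and -0.23 when number 1 of that group was, and -0.06 when non-deprived replicate 1 was. At an unadjusted limma p under 0.05 lay 5 members and 429 of all 7453 probe sets once deprived replicate 4 was dropped. When number 2 of the non-deprived group was dropped, 3 members and 282 probe sets did, where the main fit had 1 and 199. These counts thus rose over the whole array as well. With either array numbered 3 dropped, 0 members lay there. The probe sets then numbered 203 for the non-deprived array and 138 for the deprived one.

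**Figure D2:**
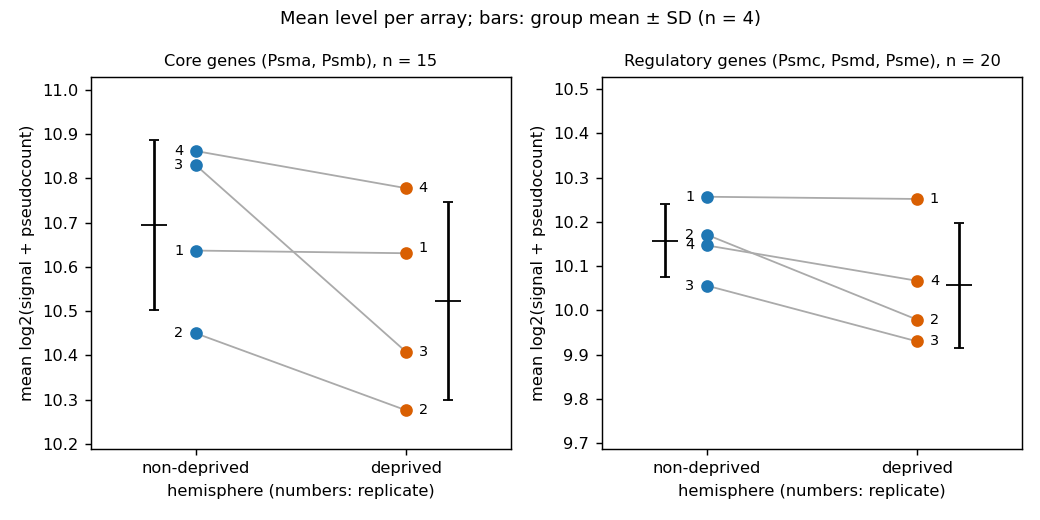
Mean log2(signal + pseudocount) over the core genes (left) and the regulatory genes (right) for each array, with grey lines joining arrays of the same number and black bars for the group mean ± SD (n = 4). Core means overlap between hemispheres, with 10.45 to 10.86 in non-deprived and 10.28 to 10.78 in deprived arrays, and the steepest line joins the arrays numbered 3.

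The actin 3' to 5' ratio, which compares control probe sets at both ends of the actin transcript and rises when RNA is broken or incompletely copied, moved with the core level. The ratio was 1.63, 1.43, 1.25 and 1.26 in non-deprived and 1.60, 1.91, 1.71 and 1.33 in deprived replicates 1 to 4. The 3 arrays with the lowest ratios, non-deprived 3 and 4 and deprived 4, had the 3 highest core means, and the 2 with the highest ratios, deprived 2 and 3, had the 2 lowest. Non-deprived replicate 2 broke this order, with a ratio of 1.43 and a core mean of 10.45. With this ratio as a covariate in limma, 5 of 15 core genes were negative and the core median was 0.04, while 13 of 20 regulatory genes were negative with a median of -0.10. Of all probe sets 49.9% were negative in that fit. The Gapdh ratio, made in the same way, was 0.871, 0.977, 0.856 and 0.887 in non-deprived and 0.856, 0.801, 0.831 and 0.882 in deprived arrays. With it as a covariate 15 of 15 core genes stayed negative with a median of -0.18, and 11 of 20 regulatory genes were negative with a median of -0.04. Of all probe sets 48.3% were negative in the Gapdh fit. The actin ratio itself averaged 1.39 ± 0.179 without and 1.64 ± 0.239 with deprivation (SD, n = 4), and its part in the lower core values was not tested.

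**Figure D3:**
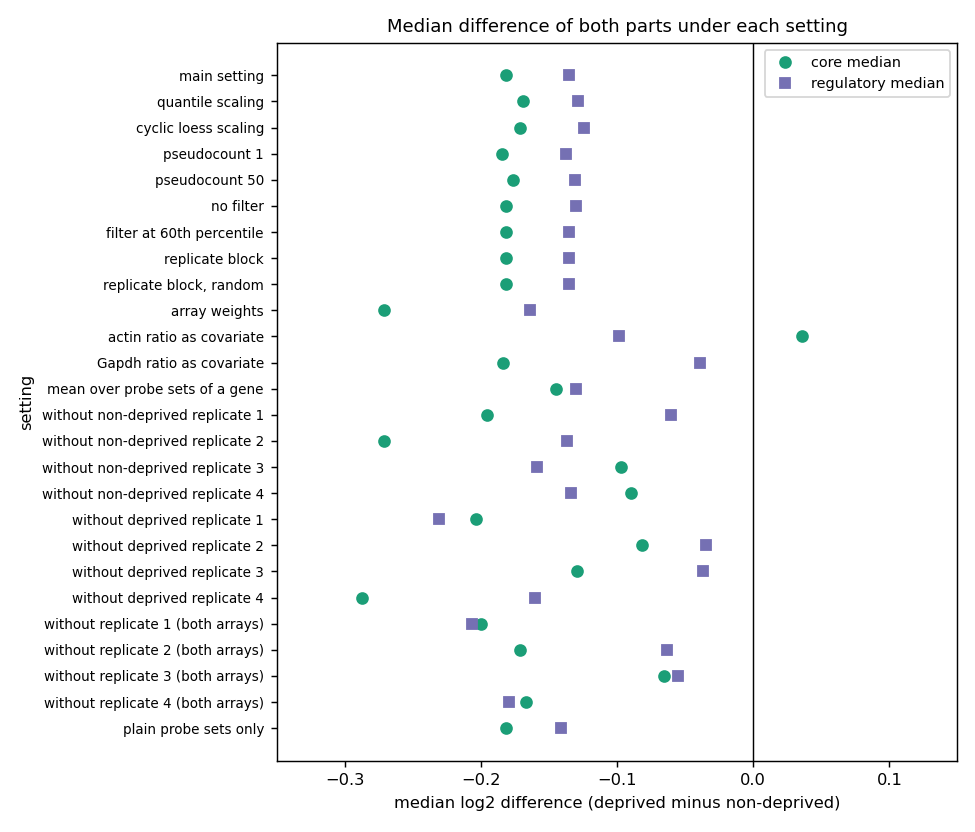
Median log2 difference (deprived minus non-deprived, x axis) of the core genes (circles) and the regulatory genes (squares) under each processing setting or with arrays left out (y axis). The core median lies between -0.29 and -0.07 except for a value of 0.04 after adjustment for the actin ratio, and the regulatory median lies between -0.23 and -0.03 throughout.

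Core and regulatory genes parted along the same arrays. The core mean minus the regulatory mean was 0.38, 0.28, 0.77 and 0.72 in non-deprived and 0.38, 0.30, 0.48 and 0.71 in deprived replicates 1 to 4. The 3 arrays with actin ratios of 1.25 to 1.33 lay between 0.71 and 0.77, and the other 5 between 0.28 and 0.48. The groups were 0.54 ± 0.244 and 0.47 ± 0.179 (SD, n = 4), so hemispheres differed by -0.07, less than a spread that both groups contained. That difference came from pair 3, with 0.77 in non-deprived and 0.48 in deprived cortex, while the other pairs were nearly equal. Non-deprived replicate 3 shows the split most plainly, with 14 of 15 core genes but 8 of 20 regulatory genes above their own mean over the 8 arrays. The highest of the 8 values lay on one of these 3 arrays for 12 of 15 core genes (6 on non-deprived replicate 4, 3 on non-deprived replicate 3 and 3 on deprived replicate 4) and for 6 of 20 regulatory genes (4, 1 and 1). Of all probe sets, 9.6%, 9.9% and 12.3% had their highest value on these arrays. The same 3 arrays had the highest core means, so the core count restates that, and the regulatory count was near the share of all probe sets.

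**Figure D4:**
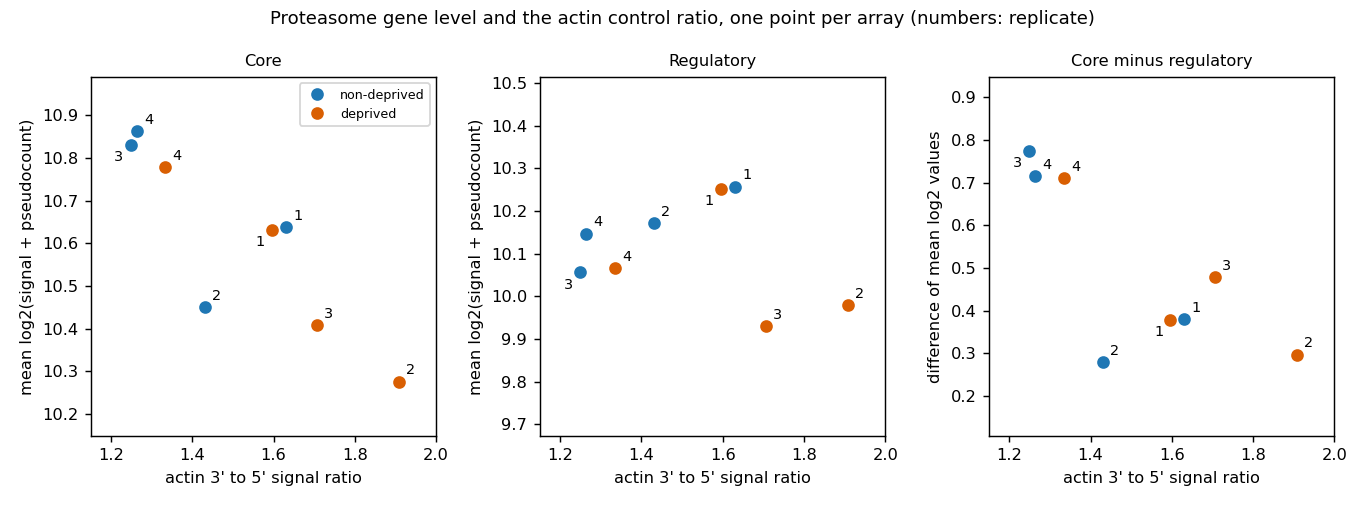
Mean log2 value of the core genes (left), the regulatory genes (middle) and their difference (right) against the actin 3' to 5' signal ratio, with one point per array, coloured by hemisphere and numbered by replicate. The core mean is highest on the 3 arrays with ratios of 1.25 to 1.33 and lowest, at 10.28, on the array with a ratio of 1.91, while the regulatory mean is low on the 2 arrays with the highest ratios (9.98 and 9.93) but not highest on the 3 with the lowest.

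Where a gene had several probe sets, they did not always move alike. Of 12 further probe sets of member genes, 7 lay above the filter and 4 of these were negative. The second probe set of Psmb5 had 240.0, 299, 435 and 359 in non-deprived and 300.4, 409, 442 and 369 in deprived replicates 1 to 4. It was higher in the deprived array of 4 of 4 pairs, at 0.20 ± 0.20 (SE), whereas the brighter one was lower in 4 of 4. The other 2 probe sets of Psmd11 had differences of -0.34 ± 0.22 and -0.12 ± 0.20 (SE), against 0.48 for the brightest. In deprived replicates 2 and 3 the brighter of those 2 had 399.6 and 341, the lowest of its 8 values, where the brightest had its 2 highest. The dimmer of those 2 was lower in only 1 of 4 pairs, that numbered 3, with 330 in non-deprived and 174 in deprived cortex. A second probe set of Psmb1 lay at -0.32 ± 0.24 (SE), against -0.06 for the brightest. For Psmb5 and Psmd11 the direction therefore depends on the probe set. With the mean over all probe sets of a gene, Psmb5 lay at -0.05 and Psmd11 at 0.01. Several chosen probe sets (of Psma3, Psmb4, Psmb5, Psmb7, Psmc3, Psmd9, Psmd12 and Psmg3) carry a name ending that marks probes shared between sequences or picked under relaxed rules. With these 8 left out, 11 of 11 core and 12 of 17 regulatory genes were negative, with medians of -0.18 and -0.14.

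**Figure D5:**
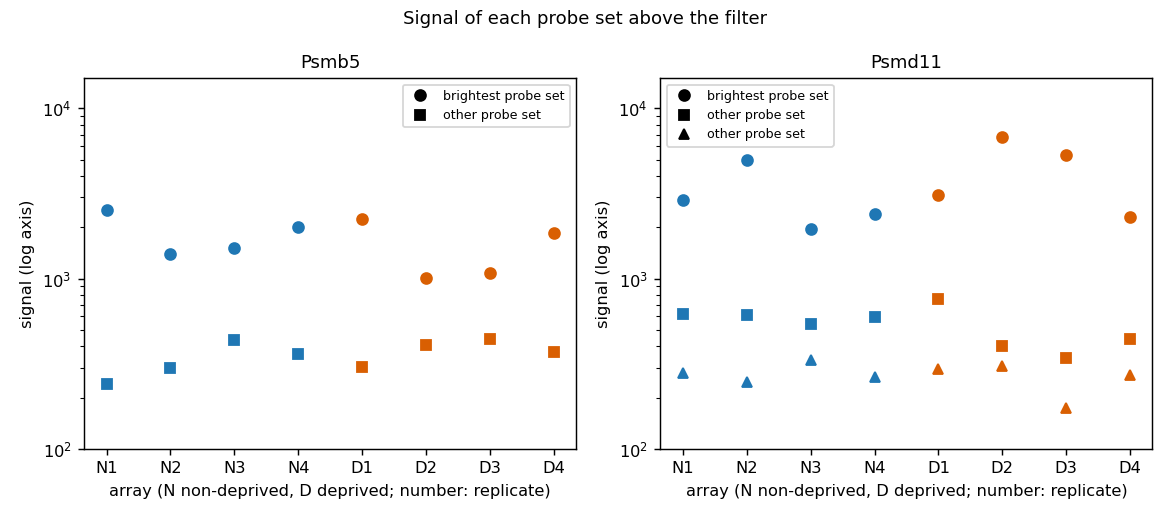
Signal (log axis) of each probe set above the filter for Psmb5 (left) and Psmd11 (right) on the 8 arrays, with blue for non-deprived and orange for deprived cortex and a marker shape per probe set. In deprived replicates 2 and 3 the brightest Psmd11 probe set is at its highest (6797 and 5306) while its second probe set is at its lowest (399.6 and 341).

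Genes of the ubiquitin pathway, chaperonin subunits and genes of the immunoproteasome and peptide transport list lay about as often above 0 as below it. Of 15 tested proteasome-associated and shuttle factors 8 were negative, with a median of -0.01, and 0 passed in limma in either direction. Pomp, the chaperone that drives core maturation, had 1796 ± 269 and 1401 ± 351 (SD, n = 4), a difference of -0.38 ± 0.19 (SE) that was the lowest of this list, with an unadjusted limma p of 0.0676. Sem1, a small lid subunit outside the Psm naming, lay at -0.27 ± 0.35 (SE). Nfe2l1, the transcription factor known to drive proteasome genes when the proteasome is impaired, had 2773 ± 140 and 2904 ± 171 (SD, n = 4), and the deubiquitinases Usp14 and Uchl5 lay at -0.02 and 0.02. Of 18 tested ubiquitin-conjugating (Ube2) enzymes 9 were negative, with a median of -0.01 and 0 passing, from Ube2v2 at -0.30 to Ube2c at 0.61. Ube2h and Ube2f had the smallest p of that list, with differences of -0.29 and 0.33. Of 14 tested cullin, Skp1 and signalosome genes 6 were negative (median 0.01, 0 passing), with Cops5 and Cops8 at -0.29 and 0.14. Of 8 chaperonin subunits 4 were negative (median -0.01, 0 passing), with Tcp1 and Cct7 at -0.37 and -0.24. Of 5 tested genes of the immunoproteasome and peptide transport list, which includes Psmb10 and Psme1, 3 were negative (median -0.14, 0 passing), with Psme1 and B2m at -0.33 and -0.27, and Psmb8 and Psmb9 were below the filter. Of the ubiquitin and activating enzyme list only Uba3 and Uba7 were measured, at -0.02 and 0.33. The members themselves had 31 of 39 negative, and the difference between lists was not tested.

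Markers of the tissue and of other cells were read from the same arrays. Neuron markers were bright, with a summed signal of 23560 to 29870 in non-deprived and 22000 to 27760 in deprived arrays, and 3 of 4 were negative (median -0.05). Cortical projection neuron markers had 3 of 4 negative (median -0.04). Summed signals of the other lists overlapped between hemispheres. Astrocyte markers had 4 of 5 negative (median -0.07), oligodendrocyte markers 3 of 4 (median -0.06), microglia markers 1 of 4 (median 0.10), endothelial and mural markers 1 of 5 (median 0.10) and thalamus markers 1 of 4 (median 0.15). The blood markers on the array had 1 of 2 negative (median -0.04), and all 3 choroid plexus markers were below the filter. No marker was listed at 0, and the part of cell composition in the proteasome values was not tested.

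Promoter sequences are given because proteasome genes are known to be driven together, by Nfe2l1 through antioxidant response elements. RefSeq promoter windows of 250 bases before to 50 after the start (build GRCm38.p6) were matched by symbol for 35 of the 42 genes, in 37 windows. The letters TGACNNNGC, common to such elements, were searched on both strands and found in 6 of 37 member windows, a share of 16.2%, against 12.4% of all 32851 windows. The following lines give the matches, with the matched letters in capitals and each sequence written along the gene's strand. The Psmb6 line ends at the last base before the transcription start.

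Psmb5, chr14:54618008-54618068, minus strand: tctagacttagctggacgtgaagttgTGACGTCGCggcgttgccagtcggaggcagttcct
Psmb6, chr11:70525322-70525356, plus strand: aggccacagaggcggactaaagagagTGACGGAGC
Psmc6, chr14:45329574-45329631, plus strand: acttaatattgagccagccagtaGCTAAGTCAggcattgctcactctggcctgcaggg
Psmd9, chr5:123228133-123228189, plus strand: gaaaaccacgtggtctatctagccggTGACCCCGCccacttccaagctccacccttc
Psmd12, chr11:107479278-107479315, plus strand: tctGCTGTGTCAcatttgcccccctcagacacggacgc
Psme4, chr11:30771758-30771786, plus strand: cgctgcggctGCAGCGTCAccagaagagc

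These 6 genes include the regulatory gene with the lowest difference, Psme4 at -0.39, and one of the highest, Psmd9 at 0.32, so genes with the letters lay on both sides of 0. The others were Psmb5 at -0.30, Psmb6 at -0.19, Psmc6 at -0.21 and Psmd12 at -0.33. The median was -0.25 for the 2 core genes with the letters and -0.17 for the 10 without, and -0.27 for the 4 regulatory genes with them and -0.14 for the 13 tested ones without. These differences were not tested. The letters CCAAT, on either strand, were in 12 of 37 member windows (32.4%), against 37.4% of all. The full YY1 element was in 0 of 37 (0.0%), against 0.712% of all. It is so rare that its absence from 37 windows says little. A shorter part of that element, among the motifs added later (below), was in 6 of 37 (16.2%), against 6.05% of all. This difference was not tested. No match or lack of one says whether a factor binds.

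Among further motifs, the split between the parts was widest for one. The letters CCGGAAG, the core that ETS-family factors recognise, were found on either strand in 12 of 21 regulatory windows, belonging to 11 genes, and 1 of 13 core windows, against 8.86% of all windows. It was one of 5 motifs added after promoter matches had been seen, and no test was made. The other added motifs were TGACNNNGC or TGAGNNNGC (8 of 13 core and 8 of 21 regulatory windows, 27.8% of all), GCCATNTT (4 of 13 core and 2 of 21 regulatory windows, 6.05% of all), TGACGTCA (0 of 37, 1.79% of all) and the palindromic element of nuclear respiratory factor 1 (2 of 37, 0.971% of all). Of these, GCCATNTT is the shorter part of the YY1 element mentioned above, found in 6 of 37 member windows (16.2%). Some windows hold more than one of these motifs. The lines below show the match (in capitals, CTTCCGG where it lies on the opposite strand) in an ATPase gene, in 3 lid genes whose differences ran from -0.33 (Psmd12) over 0.01 (Psmd6) to 0.48 (Psmd11), and in an alternative cap.

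Psmc1, chr12:100110148-100110201, plus strand: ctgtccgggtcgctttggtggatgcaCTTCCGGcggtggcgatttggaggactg
Psmd11, chr11:80428578-80428614, plus strand: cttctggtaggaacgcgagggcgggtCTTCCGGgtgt
Psmd12, chr11:107479485-107479527, plus strand: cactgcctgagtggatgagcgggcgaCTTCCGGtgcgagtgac
Psmd6, chr14:14120958-14121016, minus strand: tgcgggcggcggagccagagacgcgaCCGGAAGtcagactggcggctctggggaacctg
Psme4, chr11:30771696-30771754, plus strand: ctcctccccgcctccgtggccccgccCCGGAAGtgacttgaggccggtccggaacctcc

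Regulatory genes with and without this motif had similar medians and overlapping ranges. Of 10 tested regulatory genes with the letters 6 were negative (median -0.17, range -0.39 to 0.48). Of 7 tested ones without them 6 were negative (median -0.17, range -0.35 to 0.32). The difference between them was not tested.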

How the data were processed

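Each array's RNA (about 10 µg of total RNA, per the labels' protocols) gave deposited MAS5 signal intensity per probe set, per the submitters' processing notes. The MAS5 version is not given in the sources used here. Among 12488 probe sets each array had a trimmed mean of 500.3 (2% off each end), and 0 sample columns were left unused. The arrays' number limits the precision. Here arrays were rescaled to one trimmed mean, 66 control probe sets removed and values put on the scale log2(signal + 15.3), with the 10th percentile of signals as pseudocount. Probe sets above the 40th percentile of mean log2 value, a signal of about 110.0, were tested (7453) with limma 3.58.1 in R 4.3.3 (eBayes with trend), two-sided, Benjamini-Hochberg adjusted, threshold 0.05, on all 8 arrays without covariates. The fit was tested on simulated data with independent arrays and planted changes larger than the difference of any member. That test therefore does not cover changes of the size seen here or shared variation of same-numbered arrays. Genes were named from the 10833 probe sets with 1 symbol; 396 had several and 1193 none, and 10817 were updated by Entrez identifier to GRCm38.p6. Every member is named; array values are given for the protease subunits, other genes listed beforehand (Psmb10, Psme1, Psmd4, Psmd11, Psmd14, Psmc4) and the 10 members with the smallest p. Psmd12 was also picked out after its values were seen. Members, lists and tests were chosen with earlier results of these data known. Same-numbered samples deviated together (correlations 0.16 to 0.42, against -0.27 to 0.12 for other pairs). The numbers, which come from the titles, were therefore used as pairs in the pair counts and the block fits. The main limma fit and the SEs given were unpaired. Alternatives varied scaling, pseudocount, filter, block, array weights, control ratios, probe sets and arrays.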

Additional observations from a re-analysis of the deposited data

How the results depend on the processing

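In limma 0 members passed under each alternative run. The core median (-0.18) was negative under all alternatives but one: with the actin ratio as a covariate it was 0.036. With single arrays or both arrays of a number left out, the core median ran from -0.29 to -0.07 and the regulatory median (-0.14) from -0.23 to -0.03. The core minus regulatory difference (-0.05) then ran from -0.13 to 0.06. It was 0.13 with the actin ratio and -0.15 with the Gapdh ratio as a covariate. Which part lies lower thus depends on single arrays and on the covariate used. With the actin covariate 19 of 39 members and 5 of 15 core genes were negative, against 31 and 15 in the main fit. Of all probe sets 49.9% were negative with that covariate and 45.1% in the main fit. Among the tested members with array values given above, Psmb10 (0.18), Psmb3 (0.001), Psmb6 (0.081), Psmb7 (0.14), Psmd4 (0.018) and Psmd11 (-0.10) changed sign. Psmb7 ranged from -0.18 to 0.068 and Psmd4 from -0.33 to 0.011 with arrays left out, being positive without deprived replicate 3 or both arrays numbered 3 and without deprived replicate 2, respectively. The cause of these changes was not tested. The replicate block left every difference as it was. It moved the members at an unadjusted limma p under 0.05 from 1 to 10 (5 as a random effect), and array weights moved them to 5. Over all 7453 probe sets that count rose as well, from 199 to 524 (535 as a random effect), and to 368 with array weights. With the mean over all probe sets of a gene Psmb4 was -0.11, Psmb5 -0.05 and Psmd11 0.01. Quantile scaling gave 14 of 15 core and 12 of 20 regulatory genes below 0, against 49.3% of all probe sets. Leaving out both arrays of a number, using plain probe sets alone and leaving out Psmd11 and Psmd9 (regulatory median -0.15) were added after the data were seen. Dim probe sets (Psmc4, Psmd2, Psmd10) limit what can be said of those genes.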
